A study of Saccharomyces cerevisiae with 14 samples.

Results

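Peaks inside coding sequences were examined in the ChIP-seq lists of Sef1, a transcription factor of the budding yeast Saccharomyces cerevisiae. A peak was taken as coding when its deposited position lay between the start and the end of the coding sequence of a protein-coding gene, with no tRNA gene within 500 bp. Of the 3812 peaks in the 7 lists, 766 met this rule. Another 2086 peaks lay outside coding sequences and away from tRNA genes (intergenic peaks), and 960 lay within 500 bp of a tRNA gene. When overlapping intervals of the 7 lists were merged, 303 of 1066 sites held at least 1 coding peak, and in 281 of these every peak was coding.

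The strain was W303ScSef1TAPNB1-1, which carries Sef1 fused to the TAP affinity tag, so every ChIP and input sample carries the tagged allele. Cells were moved from an overnight YPD culture into YPGly, with glycerol as the carbon source, or into YPD, with glucose, and were crosslinked after 4.5 h at 30 °C. There were 3 biological repeats in YPGly and 4 in YPD, each with an input library of its own, and the authors deposited 1 peak list per repeat. The input libraries of YPGly repeats 2 and 3 are titled as ChIP. They were taken as inputs because their descriptions pair them with a ChIP library for peak calling. Cultures had 0.4 OD600 per ml in YPGly and 1.0 OD600 per ml in YPD, and 500 and 1500 OD600 of cells were taken for each YPGly and YPD sample. The larger YPD samples were immunoprecipitated in parts that were pooled, so medium and the amount of cells cannot be told apart. YPGly repeat 3 was sequenced apart from the others and from both ends of the fragments. A ChIP library of a strain with no tag was not analysed here.

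Sef1 belongs to the zinc cluster proteins, a fungal family that reads CGG triplets in DNA, often as a pair with a fixed spacing. Such factors act mostly from promoters, the stretch upstream of a gene. The yeast genome is compact, so a position inside one gene can lie in the promoter of the next, and many short open reading frames have no known product. Strongly transcribed genes, such as those of glycolysis and the ribosome, use a narrow set of preferred codons. This codon bias is measured by the codon adaptation index, which runs from 0 to 1 and was computed here from the sequences, with the genes of cytosolic ribosomal proteins as the reference. Their median index was 0.790, and that of all 6008 nuclear protein-coding genes was 0.193.

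Sequences of 12 coding sites are shown because they stand for the kinds of site described below. They are given 5′ to 3′ on the plus strand of the S288C R64 genome (RefSeq), and capitals mark exact matches to CCGN5CGG, the spaced pair that the study gives for Sef1. Those of the first group were called in all 7 lists or in all but 1 and hold a match. The site in YBL044W lies at chrII:136133-136259, that in YMR103C at chrXIII:473099-473159, that in UBR2 at chrXII:187676-187736, that in RRN5 at chrXII:424194-424254 and that in GLK1 at chrIII:51542-51602.
YBL044W: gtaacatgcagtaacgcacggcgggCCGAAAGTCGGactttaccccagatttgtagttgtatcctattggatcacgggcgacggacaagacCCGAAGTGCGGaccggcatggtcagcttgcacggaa
YMR103C: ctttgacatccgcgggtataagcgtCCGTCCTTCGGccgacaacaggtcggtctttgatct
UBR2: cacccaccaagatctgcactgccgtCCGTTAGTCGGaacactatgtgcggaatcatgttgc
RRN5: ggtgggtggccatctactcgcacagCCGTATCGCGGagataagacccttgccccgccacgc
GLK1: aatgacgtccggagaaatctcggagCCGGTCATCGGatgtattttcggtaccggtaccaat

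The next group was called in every YPGly list and in no YPD list, again with a match. The site in IMO32 lies at chrVII:547316-547376 and that in NMT1 at chrXII:541979-542039.
IMO32: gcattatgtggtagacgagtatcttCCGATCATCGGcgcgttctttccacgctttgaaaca
NMT1: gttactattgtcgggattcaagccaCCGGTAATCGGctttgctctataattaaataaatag

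The next group is among the most enriched and holds no exact match within 125 bp of the peak. It is shown around the peak position for YPR064W (chrXVI:679114-679174), YPL062W (chrXVI:432002-432062) and WHI5 (chrXV:480364-480424).
YPR064W: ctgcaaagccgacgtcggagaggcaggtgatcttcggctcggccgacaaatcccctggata
YPL062W: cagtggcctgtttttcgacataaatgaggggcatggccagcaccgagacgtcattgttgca
WHI5: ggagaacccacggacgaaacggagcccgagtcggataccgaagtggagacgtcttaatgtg

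The last pair comes from the bodies of strongly expressed genes and was called in YPD lists and in no YPGly list, in PDC1 (chrXII:233718-233778) and TDH3 (chrVII:883068-883128).
PDC1: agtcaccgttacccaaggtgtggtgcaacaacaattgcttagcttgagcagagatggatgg
TDH3: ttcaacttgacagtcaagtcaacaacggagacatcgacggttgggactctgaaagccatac

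Within these windows, CGG was found on either strand at 11 places in YBL044W, whose window has 127 bases. The other windows have 61 bases. There it was found at 6 places in YMR103C, 4 in UBR2, 3 in RRN5, 9 in GLK1, 2 in IMO32 and 4 in NMT1. The windows of YPR064W, WHI5 and YPL062W held 5, 5 and 1, and those of PDC1 and TDH3 held 1 and 2. No count over all coding positions was set beside these.

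Coding peaks were a minority of every list. YPGly repeats 1, 2 and 3 held 84, 62 and 66 of them, and YPD repeats 1 to 4 held 122, 184, 137 and 111. As shares of all peaks these were 16.2, 16.6 and 16.7% in YPGly and 23.1, 23.9, 22.3 and 18.2% in YPD. Coding positions that meet the rule make up 72.4% of the nuclear genome, so coding sequence held fewer peaks than its length in every list.

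The share of coding peaks averaged 16.5 ± 0.299% in YPGly and 21.9 ± 2.53% in YPD (SD, n = 3 and 4 lists). The difference of −5.37 percentage points did not pass the threshold (exact permutation test over the 35 assignments of the lists, two-sided, p = 0.0571, smallest possible p 0.0286). Peaks near tRNA genes, 33 to 62 per YPGly list and 166 to 227 per YPD list, enter the denominator. Without them, a choice made after seeing the data, the shares were 18.3, 18.2 and 18.6% in YPGly and 33.7, 33.8, 33.7 and 28.7% in YPD, a difference of −14.1 points (exact permutation test, p = 0.0286). The lists were of unequal length, 373 to 520 peaks in YPGly and 528 to 771 in YPD. With each list held to its 373 peaks of highest score, coding shares were 16.1, 16.6 and 16.4% in YPGly and 12.9, 13.7, 12.1 and 11.5% in YPD, so the difference turned to 3.82 points (exact permutation test, p = 0.0286). Without tRNA-near peaks, the shares at that length were 17.2, 18.2 and 18.1% in YPGly and 21.6, 20.2, 21.0 and 18.9% in YPD, a difference of −2.57 points (exact permutation test, p = 0.0571). Every YPD share was then still above every YPGly share, by less than in the full lists.

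**Figure D1:**
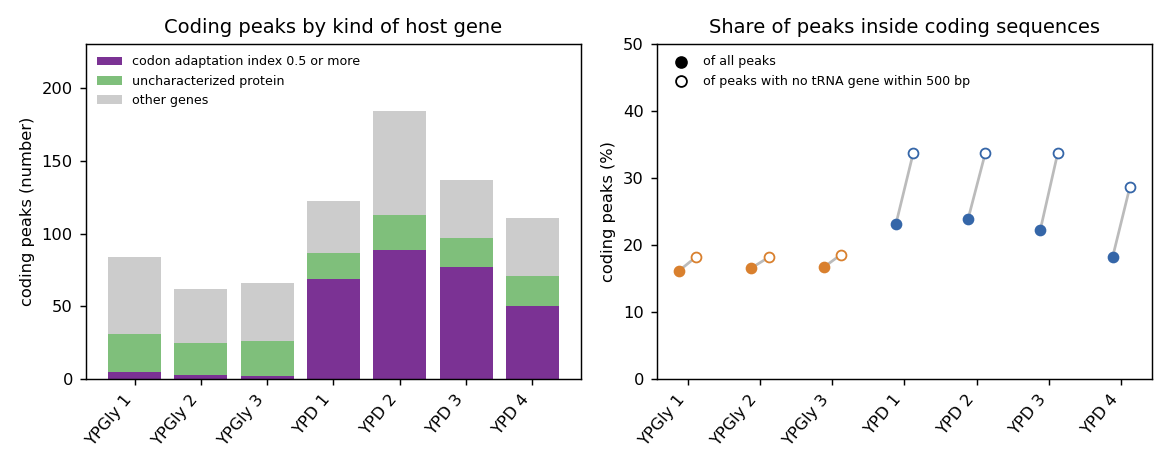
Left, number of coding peaks in each list (YPGly repeats 1 to 3, then YPD repeats 1 to 4), stacked by the kind of gene that holds them (an uncharacterized gene with an index of 0.5 or more counts by its index). Right, coding peaks as a percentage of all peaks (filled) and of peaks with no tRNA gene within 500 bp (open). Genes with a codon adaptation index of 0.5 or more hold 2 to 5 coding peaks per YPGly list and 50 to 89 per YPD list.

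The genes that held the coding peaks differed between the lists of the media. Genes with a codon adaptation index of at least 0.5 held 5, 3 and 2 coding peaks in the YPGly lists (5.95, 4.84 and 3.03%) and 69, 89, 77 and 50 in the YPD lists (56.6, 48.4, 56.2 and 45.0%). Such genes cover 3.20% of coding positions. Each YPD share was above every YPGly share. Genes annotated as uncharacterized proteins, which cover 4.45% of coding positions, held 31.0, 35.5 and 37.9% of the coding peaks in YPGly and 15.6, 13.0, 15.3 and 19.8% in YPD, so here each YPGly share was the higher. The median index of the host genes was 0.132 in each YPGly list and 0.755, 0.432, 0.746 and 0.276 in the YPD lists, against 0.196 over all coding positions.

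Taken over the 7 lists, the median index minus that of all positions averaged 0.176 ± 0.281 (SD, n = 7) and did not pass an exact sign-flip permutation test (p = 0.188, adjusted p = 0.188 over 8 tests). It was negative in every YPGly list and positive in every YPD list. The difference between media of −0.420 did not pass either (exact permutation test, p = 0.0571, adjusted p = 0.114). With lists of equal length, the median index was 0.119 to 0.132 in YPGly and 0.127 to 0.143 in YPD, ranges that overlap. The median index minus that of all positions was then negative in every list and averaged −0.0650 (exact sign-flip test, p = 0.0156, adjusted p = 0.0208), opposite in sign to that of the full lists. Genes with an index of at least 0.5 then still held 1, 3 and 1 coding peaks in YPGly (1.67, 4.84 and 1.64%) and 14, 13, 13 and 9 in YPD (29.2, 25.5, 28.9 and 20.9%).

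Counted by gene, 220 of 6008 genes (3.66%) held a coding peak in at least 1 list. A coding peak in all 3 YPGly lists was found in 48 genes (0.799% of 6008), and a coding peak in at least 3 YPD lists in 77 genes (1.28%). These conditions count lists per gene, so peaks of different lists did not have to overlap. Of the 162 genes with an index of 0.7 or more, 1 (0.617%) met the YPGly condition and 29 (17.9%) met the YPD condition. At the other end, 90 genes had an index under 0.1, and 14 (15.6%) and 16 (17.8%) of these met the YPGly and the YPD condition. Between an index of 0.2 and 0.3 the shares were 0.161 and 0.269%. The number of genes at 0.7 or above in YPD fell to 7 with lists of equal length, to 18 with peaks of at least 2-fold enrichment, and to 18 without YPD repeat 1 and 19 without YPD repeat 3.

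**Figure D2:**
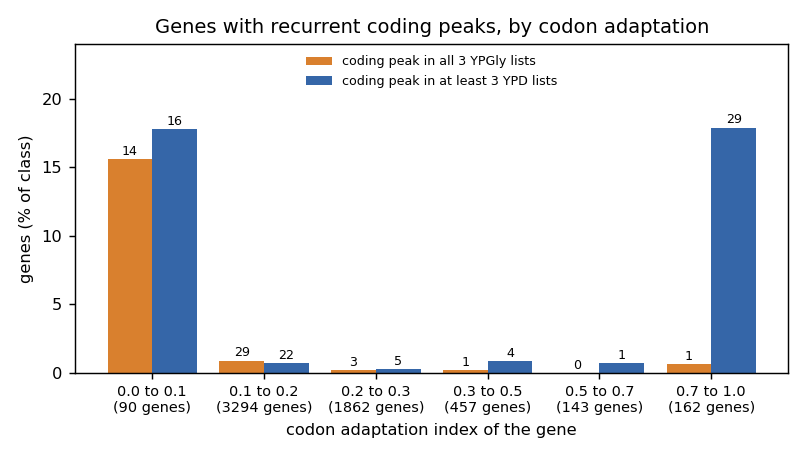
Percentage of genes in each class of codon adaptation index with a coding peak in all 3 YPGly lists (orange) and in at least 3 YPD lists (blue), with the number of genes above each bar. The top class holds 1 gene for YPGly and 29 for YPD, and the lowest class holds 14 and 16.

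The gene lists are given as counts, to be set beside the shares over all genes, 0.799% for all YPGly lists and 1.28% for at least 3 YPD lists. At least 1 YPGly list had a coding peak in 87 of the 6008 genes (1.45%), and at least 1 YPD list in 187 (3.11%). Of 21 genes of glycolysis and fermentation, 1 held a coding peak in all YPGly lists (GLK1, glucokinase) and 7 in at least 3 YPD lists (33.3%). The 7 were ENO2 (enolase), FBA1 (aldolase), GLK1, PDC1 (pyruvate decarboxylase), PGK1 (phosphoglycerate kinase), TDH3 (glyceraldehyde-3-phosphate dehydrogenase) and TPI1 (triose phosphate isomerase). Of 137 genes of cytosolic ribosomal proteins, 1 (RPL15A) met the YPGly condition and 13 (9.49%) the YPD condition, and 46 (33.6%) held a coding peak in at least 1 YPD list. Among 20 translation factors, none had a YPGly coding peak and 4 (20.0%) met the YPD condition, which were EFT1 and EFT2 (elongation factor 2), TEF1 (elongation factor 1 alpha) and HYP2 (the factor eIF5A).

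Of 24 chaperone genes, 1 (4.17%) had a coding peak in a YPGly list, while SSA1 and SSA2, cytosolic Hsp70 proteins, met the YPD condition. SSA1 met it with 4 sites that were each called in 1 list. In the tricarboxylic acid and glyoxylate cycles, none of 32 genes met the YPGly condition, and ACO1 (aconitase), IDH1 and IDH2 (subunits of isocitrate dehydrogenase) met the YPD condition. Among 48 genes of cell wall mannoproteins and flocculins, CWP1 met the YPGly condition and CCW12 and CWP2 the YPD condition. PMA1, the plasma membrane proton pump, was the only one of 17 ATPase genes to meet the YPD condition, and none met the YPGly condition. No gene of 19 hexose transporters held a coding peak in any list. Of 10 histone genes, 2 (20.0%) held a coding peak in a YPD list and none met either condition.

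Of the 247 genes within 20 kb of a chromosome end, 2 held a coding peak in any list (0.810%, against 3.66% of all genes). Ty element genes, which code for retrotransposons, held 8 coding peaks in 5 of 91 genes, all in YPD lists, and 50 of the 91 have any position that meets the rule. Of 271 genes with an intron, 1 held a coding peak in a YPGly list (0.369%, against 1.45% of all genes) and 31 in a YPD list (11.4%, against 3.11% of all genes). Only 7 of the 766 coding peaks lay within an intron.

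Several sites in 1 gene were common. At least 2 coding sites lay in 54 genes, and 33 of these had an index of at least 0.5, while 37 had no coding peak in YPGly. PMA1 had 7 sites, with 4, 5, 3 and 5 peaks in YPD repeats 1 to 4 and none in YPGly. Enrichment, the deposited fold ratio of ChIP to input signal, ran between 1.67 and 3.80. PDC1 had 5 sites with 6, 4, 4 and 3 peaks in the YPD lists, between 4.23 and 95.1% of its coding length. TDH3 had 4 sites with 3, 4, 4 and 3 peaks in the YPD lists and none in YPGly. EFT1 had 5 sites with 3, 5, 3 and 3 peaks in the YPD lists. The peaks were thus spread along these genes and were not held to 1 place.

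Enrichment at these sites was low and followed the lists. In TDH3 the site at 37.9% of its coding length (chrVII:883319-883565) had enrichments of 3.45, 1.83, 2.78 and 2.67 in YPD repeats 1 to 4. The site nearest its start codon (chrVII:883592-883856) had 2.52, 1.86, 2.10 and 2.55. In PDC1 the site at chrXII:233418-233865 had 4.68, 2.08, 3.32 and 3.29, and in RPS31, which codes for a ubiquitin and ribosomal protein fusion, the site at chrXII:499175-499424 had 5.74, 3.59, 4.48 and 5.07. YPD repeat 2 was lowest at each of the 4 sites, and repeat 1 highest at all but the site nearest the TDH3 start codon, where repeat 4 was highest. EFT1 and EFT2, TEF1 and TEF2, SSA1 and SSA2, and RPL8A and RPL8B are near-identical pairs, and how reads that map to both were placed is not given in the sources used here, so their peaks are uncertain.

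Some genes had several sites in both media. PUT4, the proline permease, had 4 sites with 4, 3 and 3 peaks in the YPGly lists and 1, 2, 1 and 2 in the YPD lists. At its strongest site (chrXV:987486-987869) the enrichment was 5.10, 3.94 and 4.82 in YPGly, against 1.53, 1.61, 1.83 and 1.91 in YPD. PTK1, a protein kinase, had 2 sites with a peak in every list. SHR5, part of a palmitoyltransferase, had 2 sites with 2 coding peaks in each YPGly list and 1, 2, 0 and 2 in the YPD lists.

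**Figure D3:**
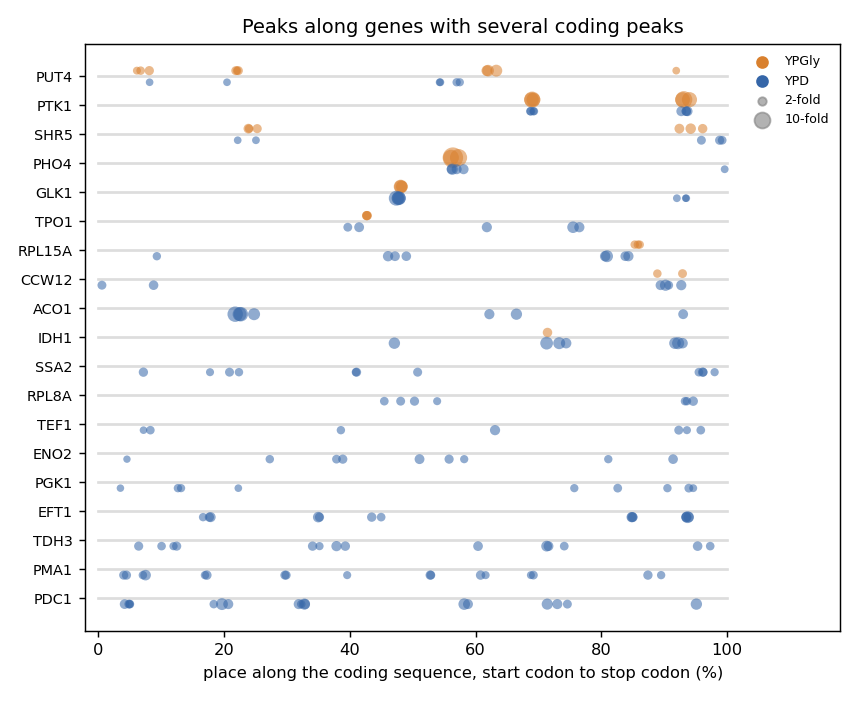
Place of each coding peak along 19 of the 54 genes with at least 2 coding sites, from start codon (0%) to stop codon (100%), for YPGly (orange, upper row of a gene) and YPD (blue, lower row). The area of a point grows with the enrichment of the peak. PMA1 and PDC1, with 17 peaks each, and TDH3, with 14, show peaks along their length in YPD and none in YPGly.

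Some of the coding sites with YPD peaks lay near the 4 strongest sites of the whole series, which are outside coding sequences beside ISA1, ACO1, IDH1 and IDH2. Within 5 kb of these lay 27 coding sites in 13 genes, with 6 of the 212 YPGly coding peaks (2.83%) and 50 of the 554 YPD coding peaks (9.03%). ACO1 held 3 such sites, and that nearest the strong site (871 bp away, chrXII:736874-737148) had enrichments of 9.29, 5.20, 7.38 and 8.03 in YPD repeats 1 to 4. IDH1 had a site at 1267 bp (chrXIV:557895-558340) with 2.81 in YPGly repeat 1 and 5.61, 3.70, 3.73 and 4.95 in the YPD repeats. The 5 sites of EFT1 lay 2419 to 4346 bp from the strong site beside IDH2. With all peaks within 5 kb left out, a choice made after seeing the data, no comparison over the lists changed its side of the threshold, and only the small difference between media in the enrichment gap, given further on, changed sign (0.00348).

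Coding peaks lay toward the ends of their genes. Each coding sequence was cut into 3 equal parts, a 5′ part, a middle part and a 3′ part. In the YPGly lists 45.2, 41.9 and 40.9% of coding peaks were in the 3′ part, and in the YPD lists 54.1, 46.7, 52.6 and 45.0%, against 33.2% of all coding positions. The excess was 13.4 ± 5.00 percentage points (SD, n = 7), present in 7 of 7 lists (exact sign-flip permutation test, two-sided, p = 0.0156, the smallest possible, adjusted p = 0.0208). Lists of a medium share many sites, so this p-value measures agreement between lists, not the spread over sites. The 5′ part held 27.4, 27.4 and 28.8% in YPGly and 13.9, 24.5, 21.9 and 24.3% in YPD, against 33.3% of positions, a deficit in 7 of 7 lists that averaged −9.24 ± 5.03 points (exact sign-flip test, p = 0.0156, adjusted p = 0.0208).

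The last of 10 equal parts alone held 39 of 212 YPGly coding peaks (18.4%) and 129 of 554 YPD coding peaks (23.3%), against 9.90% of positions. Neither place differed between media past the threshold. The YPGly minus YPD difference was −6.92 points for the 3′ part (exact permutation test, p = 0.114, adjusted p = 0.131) and 6.71 points for the 5′ part (exact permutation test, p = 0.0857, adjusted p = 0.114).

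The genes that held coding peaks were shorter than those that hold most coding positions. The median coding length of the hosts, counted over peaks, was 790, 714 and 765 bp in the YPGly lists and 997, 1238, 999 and 894 bp in the YPD lists, against 1917 bp over all coding positions, where long genes weigh more. Over all genes, each counted once, the median was 1200 bp, which YPD repeat 2 exceeded. Counted in bases, the first 500 bp of genes therefore also held more coding peaks than positions, by 19.8 points (exact sign-flip test, p = 0.0156, adjusted p = 0.0208), which turned the direction found for the 5′ part. With the whole deposited interval required inside the coding sequence, the excess in the 3′ part was 2.03 points and did not pass (exact sign-flip test, p = 0.266, adjusted p = 0.304).

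**Figure D4:**
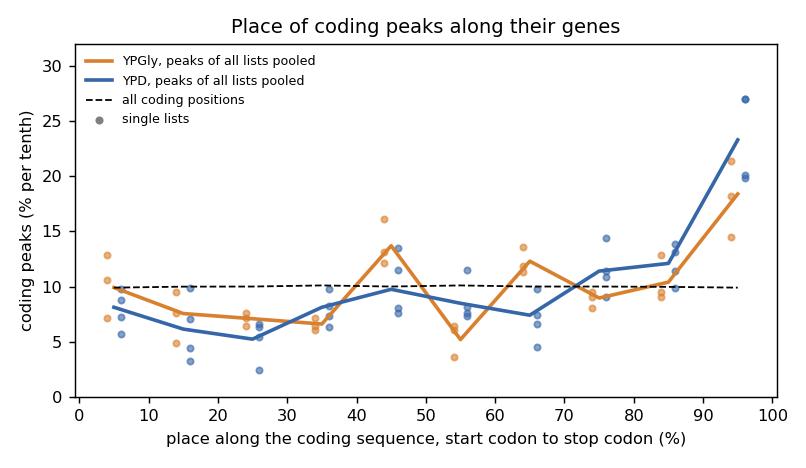
Percentage of coding peaks in each of 10 equal parts of the coding sequence, from start codon to stop codon, with lines for the peaks of YPGly (orange) and YPD (blue) lists pooled and points for single lists. The dashed line gives all coding positions. The last part holds 18.4% of coding peaks in YPGly and 23.3% in YPD, against 9.90% of positions.

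Many coding peaks lay in front of another gene. Within 500 bp upstream of the start codon of a neighbouring gene were 31.0, 29.0 and 33.3% of the coding peaks in YPGly and 20.5, 19.0, 16.8 and 20.7% in YPD, against 7.22% of all coding positions. The excess averaged 17.1 ± 6.58 points and was present in 7 of 7 lists (exact sign-flip permutation test, p = 0.0156, adjusted p = 0.0208). It was 23.9 points in YPGly and 12.0 points in YPD, and the lists of the media did not overlap, but the difference of 11.9 points did not pass after adjustment (exact permutation test, p = 0.0286, adjusted p = 0.0762). Among intergenic peaks the share was 58.0 to 60.4% in YPGly and 55.8 to 58.0% in YPD. As given above, the hosts of coding peaks were shorter than the genes that hold most coding positions. An excess over positions in genes of like length was not tested.

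Exact matches to CCGN5CGG were found in 19.0, 19.4 and 19.7% of the 250-bp windows of coding peaks in YPGly and in 4.10, 4.89, 5.84 and 7.21% in YPD. The pattern is its own reverse complement, so 1 search covers both strands. Windows centred on all coding positions held it in 0.526%, so each list was above that share. The study found its motif in the peaks most enriched in YPGly in these same data. Neither the excess over coding positions nor a higher share in YPGly is therefore independent support for the pattern. For intergenic peaks the share was 14.4, 16.9 and 17.0% in YPGly and 14.6, 12.5, 13.3 and 14.5% in YPD. Coding minus intergenic was 3.25 points in YPGly and −8.22 points in YPD, with opposite signs in every list. Over all 7 lists the difference was −3.30 ± 6.26 points (exact sign-flip permutation test, p = 0.188). With 1 mismatch allowed it was −17.2 points and passed (exact sign-flip test, p = 0.0156, adjusted p = 0.0179). The difference between media of 11.5 points did not pass after adjustment (exact permutation test, p = 0.0286, adjusted p = 0.0762).

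Of the 78 matches in these windows, 58 (74.4%) had their centre within 50 bp of the peak, at a median of 28.5 bp. On the plus strand, the match of UBR2 printed above was centred 3 bp before the peak position and that of NMT1 1 bp before it. In YBL044W the matches were centred 17 bp before and 49 bp after it.

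Coding peaks were richer in GC than intergenic peaks. The median GC content of the 250-bp windows was 49.2, 49.2 and 49.6% in YPGly and 45.0, 44.4, 43.6 and 45.6% in YPD for coding peaks, against 44.4 to 45.0% in YPGly and 42.8 to 44.0% in YPD for intergenic peaks and 39.2% over coding positions. The difference to intergenic peaks was 2.80 ± 1.72 points, positive in 7 of 7 lists (exact sign-flip permutation test, p = 0.0156, adjusted p = 0.0208). It was 4.60 points in YPGly and 1.45 points in YPD (exact permutation test, p = 0.0286, adjusted p = 0.0762). GC content over intergenic positions was not computed, so this difference is not separated from one between coding and intergenic DNA at large.

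Coding peaks were slightly more enriched than intergenic peaks. The median enrichment of coding peaks was 2.83, 2.46 and 2.55 in YPGly and 2.69, 1.61, 2.06 and 2.26 in YPD, against 2.42, 2.18 and 2.39 in YPGly and 2.14, 1.53, 1.76 and 1.95 in YPD for intergenic peaks. On the log2 scale the gap was 0.19 ± 0.0892 (SD, n = 7), positive in 7 of 7 lists (exact sign-flip permutation test, p = 0.0156, adjusted p = 0.0208). The gap turned to −0.09 (p = 0.0625, adjusted p = 0.100, same exact test) with peaks of at least 2-fold enrichment, and to −0.40 (p = 0.109, adjusted p = 0.146) with the authors' score in place of enrichment. Between media the gap differed by −0.05 (exact permutation test, p = 0.486). Enrichment under 2 was found in 72 of 212 YPGly coding peaks (34.0%) and 264 of 554 YPD coding peaks (47.7%), and enrichment of 10 or more in 34 (16.0%) and 18 (3.25%).

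Coding peaks were found again less often than intergenic peaks. Another list of the same medium held an overlapping peak for 78.6, 91.9 and 95.5% of the coding peaks in YPGly and 85.2, 60.9, 77.4 and 91.9% in YPD, against 78.6, 98.6 and 98.6% in YPGly and 97.5, 76.7, 94.4 and 96.7% in YPD for intergenic peaks. The difference was −8.54 ± 6.56 points, negative in 7 of 7 lists (exact sign-flip permutation test, p = 0.0156, adjusted p = 0.0208). It did not pass with lists of equal length (−2.50 points, adjusted p = 0.286) or with peaks of at least 2-fold enrichment (−5.31 points, adjusted p = 0.219, same exact test).

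By site, 134 of the 303 coding sites (44.2%) were called in 1 list, 34 (11.2%) in all 7 and the rest in 2 to 6. Of the sites with a single call, 121 were in a YPD list, 64 of them in YPD repeat 2, the longest list, and 11 of the other 13 were in YPGly repeat 1. At least 3 calls in a medium were reached by 123 coding sites. Of these, 23 had 3 calls in YPGly only (18.7%, against 16.7% of all 645 sites with 3 calls), 35 had 3 calls in both media (28.5%, against 34.9%) and 65 had 3 calls in YPD only (52.8%, against 48.4%). These shares lie near those of all sites. Here "only" means fewer than 3 calls in the other medium, and 11 of the 65 sites also had 1 or 2 calls in YPGly. Over these 11 the median of the means in YPGly was 2.13.

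The 3 groups differed in their make-up, though some genes, such as GLK1 and PUT4, held sites of more than 1 group. Among the 35 sites of both media, the median codon adaptation index of the host was 0.11, 15 hosts (42.9%) were annotated as uncharacterized proteins and 30 sites (85.7%) lay within 1000 bp upstream of another gene. Among the 23 sites of YPGly only, the median index was 0.135, 7 hosts (30.4%) were uncharacterized and 15 sites (65.2%) lay within 1000 bp upstream of another gene. Among the 65 sites of YPD only, the median index was 0.83, 5 hosts (7.69%) were uncharacterized and 26 sites (40.0%) lay that close. The share of all coding positions that lies within 1000 bp upstream of another gene is not given here. In the 3′ part of the gene lay 16 sites of both media (45.7%), 10 of YPGly only (43.5%) and 40 of YPD only (61.5%). Of all genes, 9.65% are annotated as uncharacterized proteins, a count made after seeing the data. CCGN5CGG stood in the windows of 7 sites of both media (20.0%), 5 of YPGly only (21.7%) and 1 of YPD only (1.54%). The study found this pattern in its most enriched YPGly peaks, so these shares are not independent of the medium.

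Most of the highest coding sites lay in short open reading frames in front of a known gene. The frames of YBL044W, YPR064W and YLR112W are 369, 420 and 420 bp long, with a codon adaptation index of 0.133, 0.0920 and 0.113. They are annotated as uncharacterized proteins, and whether they are translated was not examined. In YBL044W (chrII:136045-136304), whose site lay 508 bp upstream of ECM13, the enrichment was 165, 116 and 133 in YPGly, against 76.4, 59.0, 59.5 and 90.4 in YPD. In YPR064W (chrXVI:679005-679264), 549 bp upstream of ROX1, a repressor of hypoxic genes, it was 112, 81.4 and 97.0 in YPGly, against 74.4, 54.7, 56.1 and 81.0 in YPD. Enrichments of different lists are not on 1 scale. In YLR112W (chrXII:370685-370944), 723 bp upstream of CCW12, it was 35.9, 22.1 and 25.5 in YPGly, against 16.5, 13.3, 11.4 and 17.2 in YPD.

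Sites in YPL062W and WHI5 were high in YPGly and low in YPD. YPL062W (chrXVI:431908-432206), 556 bp upstream of ALD6, which codes for cytosolic aldehyde dehydrogenase, had 35.7, 30.0 and 34.3 in YPGly, against 3.04, 2.53, 2.45 and 3.07 in YPD. WHI5, a repressor of the G1 to S transition, held a site 26 bp before its stop codon (chrXV:480271-480530), 193 bp upstream of the peroxisomal lipase gene LPX1. There the enrichment was 31.3, 19.2 and 22.6 in YPGly, against 2.28, 2.25, 2.26 and 2.92 in YPD. At both sites every YPGly value was above every YPD value.

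The remaining sites among the 10 highest in YPGly were those in YCR025C (mean 19.6 in YPGly, against 6.40 in YPD), PHO4, a transcription factor of phosphate use (12.9 against 3.45), BRP1, upstream of PMA1 in the genome (12.8 against 5.51), and YKL097C (11.6 against 7.45). ART5, an arrestin-related protein, stood first with means of 174 in YPGly and 14.1 in YPD at chrVII:625176-625480. Only 4 of the 7 peaks at that site were coding, all from YPD, and the YPGly peaks lay past its stop codon, 172, 147 and 203-fold enriched. In YPD the 10 highest also included the ACO1 site given above, GLK1 with 7.03 and MHF1 with 11.7. At MHF1 the mean rests on 30.6 in YPD repeat 4, a peak outside the coding sequence, and the coding peak, of YPD repeat 1, had 2.93.

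Enrichment between media was tested with limma over the 203 sites called in all 7 lists, on log2 enrichment centred at the median of each list. A site higher or lower in YPGly is therefore so relative to the other shared sites. Of the 34 coding sites, 17 were higher in YPGly and 12 lower (adjusted p under 0.05, Benjamini-Hochberg over all 203 sites). A site counts as coding here if at least 1 of its peaks was coding. At ART5, RSO55 and the PHO4 site near the stop codon, the YPGly peaks lay outside the coding sequence. Over all 203 sites 29.6% were called higher and 53.2% lower, and the median change was 0.22 for coding sites and −0.30 for all sites. The 203 include the 34 coding sites themselves and 169 others, to which no tRNA rule was applied. With no centring, which adds 0.70 to every change, 23 coding sites were higher and 2 lower.

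The largest rises were in ART5 (2.92 ± 0.12, log2 change ± SE, limma adjusted p = 7.70e-15), where the YPGly peaks were not coding, YPL062W (2.89 ± 0.10, limma adjusted p = 4.12e-16) and WHI5 (2.61 ± 0.10, limma adjusted p = 4.49e-15). YOR268C, an uncharacterized frame, rose by 1.76 ± 0.12 and the PTK1 site nearer the start codon by 1.44 ± 0.09 (limma adjusted p = 2.29e-11 and 1.28e-11). The other PTK1 site rose by 1.00, the site within PHO4 by 1.19, UBR2, a ubiquitin ligase, by 1.00, YCR025C by 0.92 and YAT1, a carnitine acetyltransferase, by 0.77. In YAT1 the enrichment was 12.6, 9.61 and 11.1 in YPGly, against 3.79, 3.82, 3.49 and 5.06 in YPD, and with quantile normalization the call ended (0.27, limma adjusted p = 0.0986).

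The largest falls were in RPL15A (−1.49 ± 0.12, limma adjusted p = 3.26e-10), RSO55 (−1.09 ± 0.09, limma adjusted p = 1.45e-09), where 2 of 7 peaks were coding, RUP1 (−1.04 ± 0.10, limma adjusted p = 1.47e-08), GLK1 (−0.90 ± 0.10, limma adjusted p = 3.77e-08) and YDR010C (−0.83 ± 0.11, limma adjusted p = 6.30e-07). RPL15A had 2.01, 1.93 and 1.98 in YPGly, against 4.33, 2.95, 3.16 and 3.31 in YPD, which do not overlap. GLK1 had 7.26, 5.02 and 6.16 in YPGly, against 7.28, 6.19, 6.04 and 8.60 in YPD, which overlap before centring. With no centring the calls ended for RUP1 (−0.34, limma adjusted p = 0.0762), GLK1 (−0.19, limma adjusted p = 0.321) and YDR010C (−0.13, limma adjusted p = 0.534). The change at YBL044W was 0.26 ± 0.10 (limma adjusted p = 0.0217), a call that ended over the sites of at least 2-fold mean enrichment (0.13, limma adjusted p = 0.262) and without YPD repeat 2 (0.23, limma adjusted p = 0.0537). YPR064W, with −0.15 ± 0.10, did not pass (limma adjusted p = 0.156).

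**Figure D5:**
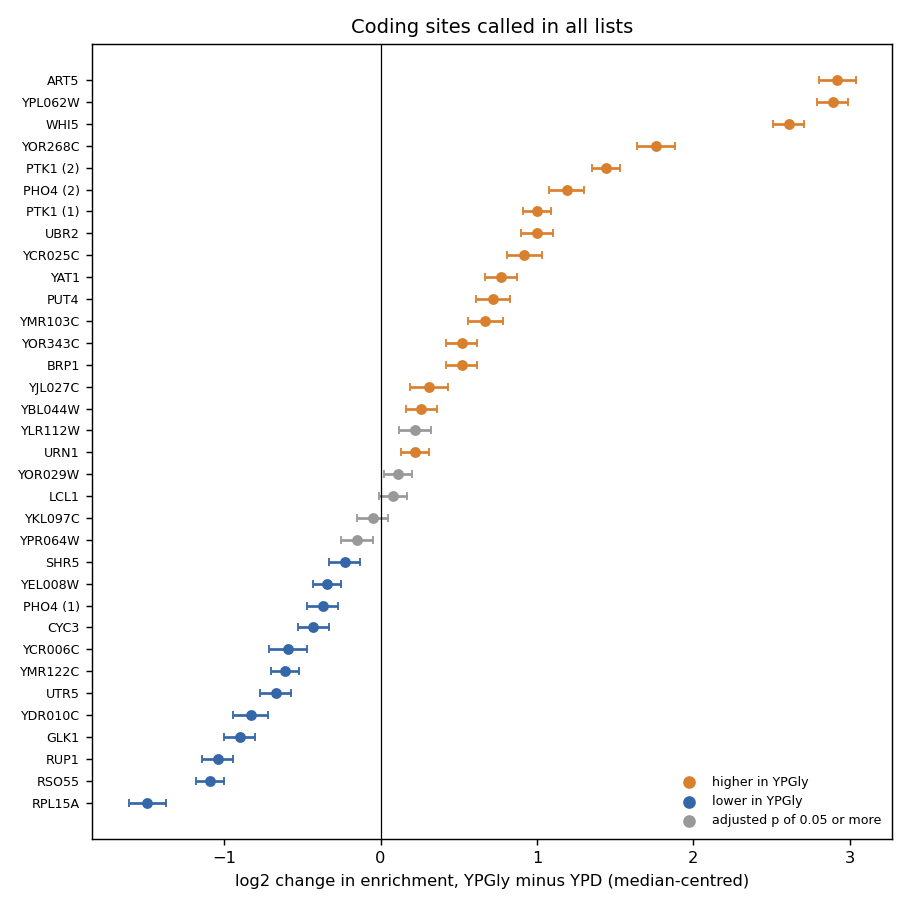
Change in log2 enrichment (YPGly minus YPD, median-centred, points with SE as bars) for the 34 coding sites called in all 7 lists, named by the gene that holds them. Orange sites were higher in YPGly (17), blue sites lower (12) and grey sites did not pass. PTK1 (2) and PHO4 (2) lie nearer the start codon than PTK1 (1) and PHO4 (1). At ART5, RSO55 and PHO4 (1) the YPGly peaks were not coding.

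The 23 coding sites with 3 calls in YPGly only were weak, and 9 of them also had 1 or 2 calls in YPD. The highest was a second site in ART5 (chrVII:625744-626003), with 6.63, 4.65 and 4.56 in YPGly and no call in YPD. YFL015C, an uncharacterized frame 423 bp upstream of the mitochondrial chaperone gene MDJ1, followed with 5.41, 3.05 and 4.00 and no call in YPD. The median of the means in YPGly was 2.21 over these sites, against 6.15 over the sites of both media. Over the sites of YPD only, the median of the means in YPD was 2.23. A missing call says only that no peak was listed, since reads and depth are not in the lists.

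The limits of the rule passed through similar peaks. Coding positions whose nearest tRNA gene was over 500 and at most 1000 bp away, just inside the rule, held 7 peaks in YPGly with a median enrichment of 1.95 and 17 in YPD with 1.47. Those with a tRNA gene at 500 bp or less, just outside it, held 6 in YPGly with 2.10 and 24 in YPD with 1.70. At most 50 bp inside the edge of a coding sequence were 35 peaks in YPGly (median 2.28) and 88 in YPD (2.01). At most 50 bp outside it were 35 in YPGly (2.41) and 62 in YPD (1.94).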

How the data were processed

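Per the labels and the study's methods, the authors trimmed reads with Trimmomatic 0.36, mapped them to the S288C genome (R64) with Bowtie2 2.3.3 and called peaks in each ChIP library against its input, without pooling repeats. The caller is not given in the sources used here. The deposited lists hold 1 position per peak, with the enrichment as a fold ratio (maximum-likelihood estimate, used here, and lower bound), a score, and the false discovery rate of the authors' caller, a p-value-like measure that the interval files give as −log10. No list holds read numbers, so depth and counting error are unknown, and the error is the spread between lists.

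Positions were placed on the SGD R64-5-1 annotation of RefSeq (the study used R64-2-1). Introns counted as coding, and intervals overlapping by 1 bp were merged into sites. Where a list had several peaks in a site, their mean was used. Lists were compared by exact permutation tests, two-sided. The sign-flip tests treat lists as independent, but lists of a medium share many sites. The p-values of these tests therefore measure agreement between lists, not the spread over sites. Tests of 8 measures were adjusted by the Benjamini-Hochberg method, separately within lists and between media, at a threshold of 0.05. Sites called in all lists were fitted with limma 3.58.1 in R 4.3.3, and all else was computed in Python 3.11.15. The members, gene lists and tests were chosen with earlier results of these data known. Named are the 10 coding sites of highest mean enrichment in each medium (with at least 3 calls there), those past the limma threshold, the 5 largest changes each way, genes with several coding sites and list members. Other named genes (RRN5, IMO32, NMT1, YFL015C, HIS3, MRM1 and NDE1) were chosen after their values were seen. Scripts were tested on simulated data.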

Additional observations from a re-analysis of the deposited data

Results flagged for a closer look

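In the values of coding peaks, YPD repeat 1 stood apart for CCGN5CGG, with a coding minus intergenic difference of −10.5 percentage points against −7.61 to −7.29 in the other YPD repeats. YPD repeat 4 stood apart for the share of coding peaks among peaks away from tRNA genes, with 28.7% against 33.7 to 33.8%. It also stood apart at the WHI5 site, with an enrichment of 2.92 against 2.25 to 2.28, and at the YOR343C site, with 1.63 against 1.47 to 1.48. Such a gap was looked for in 46 groups of 4 values and was found in these 4, and chance gives about 1 in 20.

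Measures of coding peaks that differed between the media were the excess upstream of a neighbouring gene (YPGly minus YPD, 11.9 points), the difference to intergenic peaks in CCGN5CGG (11.5 points) and that in GC content (3.15 points). Each had an unadjusted p of 0.0286 in an exact permutation test, the smallest that 35 assignments allow, and none passed after adjustment over 8 tests. The median codon adaptation index of the hosts lay below that of all coding positions in each YPGly list and above it in each YPD list (difference −0.420, exact permutation test, p = 0.0571).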

How the results depend on the processing

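Of 390 alternatives of the comparisons, 343 kept direction and call (counts within 1.5 times), 13 reversed, 17 lost the call, 2 gained it and 15 counts moved by over 1.5 times. Of 399 for the named sites, 27 lost the call and 12 reversed. Requiring whole intervals inside coding sequences gave 0.0852 for the difference between media in the enrichment gap, 2.03 for the 3′ part, 0.430 for CCGN5CGG, and 28 YPGly and 44 YPD genes, of which 0 and 19 had an index of 0.7 or more. Interval widths, 190 to 260 bp, differ between lists. No tRNA filter gave −5.82 for the share away from tRNA genes and 0.253 for CCGN5CGG. An enrichment of at least 2 gave −13.4 for the share, −0.0897 for enrichment, 0.107 for its difference between media, −5.31 for recurrence, −11.5 and 9.58 for the 5′ and 3′ parts, 14.2 upstream, 2.29 for GC, and 47 YPD genes, with 0 YPGly and 18 YPD genes at an index of 0.7 or more. Equal list lengths gave 3.82 and −2.57 for the shares, −2.50 for recurrence and −0.844 for its difference between media, −0.0650 for codon adaptation, and 36 YPD genes, with 0 and 7 at 0.7 or more. The score gave −0.397 and 0.869 for enrichment and its difference between media, and 7 coding sites lower in YPGly. With no centring 2 were lower. A motif mismatch of 1 base gave −17.2, which passed, and counting bases in place of equal parts gave 19.8 for the first 500 bp and 5.39 for the difference between media in the last 500 bp. Without peaks near the 4 strongest sites the gap between media was 0.00348.

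Leaving out 1 list at a time gave −15.3 to −13.6 for the share away from tRNA genes, which cannot reach 0.05 with 6 lists, and 18 to 29 YPD and 1 to 2 YPGly genes at an index of 0.7 or more. Same-numbered lists did not deviate together (r = −0.299, −0.365 and 0.0379 over 203 sites). The replicate block gave −6.59 for the share and −15.3 away from tRNA genes (exact p = 0.25, its smallest), and 16 higher and 11 lower sites. Of the named sites, no centring turned UTR5 (0.03), YMR122C (0.09), YCR006C (0.11), CYC3 (0.27), PHO4 near its stop codon (0.33), YEL008W (0.36) and SHR5 (0.47). Quantile normalization turned CYC3 (0.12), PHO4 (0.15) and YEL008W (0.02), and the score turned CYC3 (0.03) and SHR5 (0.09). The cause of these changes was not tested. Depth could not be examined.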

Other observations

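Some sites that hold a coding peak, chosen after their values were seen, were high in a single list. HIS3, which codes for an enzyme of histidine synthesis, held a peak with an enrichment of 50.7 in YPD repeat 4 and no call in any other list (chrXV:722134-722323). At the start of the neighbouring gene MRM1 (chrXV:721587-721825) the enrichment was 2.07 in YPGly repeat 2, against 4.58 in YPD repeat 1 and 31.1 in YPD repeat 4, and the peak of YPD repeat 1 lay outside the coding sequence. At MHF1 a peak past the edge of the coding sequence had 30.6 in YPD repeat 4, against 2.93 in YPD repeat 1, the only coding peak of the 3, and 1.61 in YPD repeat 2. All 3 sites were thus highest in the same list.

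NDE1, which codes for an external mitochondrial NADH dehydrogenase, held a coding site at 5.08% of its length (chrXIII:556286-556495), with an enrichment of 2.37 in YPGly repeat 2, against 2.05 and 2.24 in YPD repeats 2 and 3.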
